A study of Brassica rapa with 36 samples.

Results

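Microspores of the Brassica rapa line 49CX, which the series describes as non-inducible, were compared between 2 stages: late unicellular microspores, and microspores labelled as without heat shock (called unheated here). All libraries whose labels name that line and either stage were taken, 3 for each stage, which makes 6 of the 36 libraries in the series, and every gene ID in their tables was used. The wider series also holds the inducible line K2, sampled as leaf, as the same kinds of microspores, as pollen and as 2-, 4- and 8-cell embryos, and it holds heated microspores and leaf of 49CX. The unheated group is the counterpart of the heated group in the labels. Its comparison with late microspores does not isolate an effect of heat or of its absence. No genetic modification is given for either group, and the labels give neither the plants behind each replicate nor how long the unheated cells were kept or in what. Replicates may therefore be technical, and every p-value here refers to the spread among libraries alone. For the tests of single IDs below, that spread was estimated over all 18 microspore libraries, with K2 and heated ones included.

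Microspores are the haploid products of male meiosis, released as single cells that enlarge, divide unequally and mature into pollen. Along that path transcripts of housekeeping and early wall-building genes are known to give way to a narrow group of very abundant transcripts that pollen stores for germination and tube growth. In culture, stress such as heat can divert microspores of responsive lines from this path into embryo formation, called androgenesis, and cells kept without stress serve as the reference.

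The tables hold raw read counts for 47135 gene IDs. None of these IDs matched the RefSeq gene table, so no gene name, function or sequence can be given, and the labelled cell type could not be checked against named markers. The 3 late libraries held 112228, 85651 and 113517 gene counts, and the 3 unheated libraries 150209, 206756 and 239346. Depth thus differed between the stages without overlap. Reads in no annotated gene made up 72.4%, 73.0% and 81.6% of reads in the late libraries and 71.7%, 65.1% and 60.1% in the unheated ones, so that late replicate 3 stood highest. Both values move with the stage, and their part in the results below was tested only as far as equal-depth values and fits without each library show. Within each stage, replicates had a Pearson r of log2 CPM (counts scaled to a common library total) between 0.760 and 0.782 (late) and between 0.897 and 0.917 (unheated), over 9376 genes. No pair of replicates agreed within sampling noise, although the excess was modest. The chi-square per degree of freedom, a ratio of spread to sampling noise, was 1.19 to 1.33 in late and 1.15 to 1.52 in unheated pairs. It was taken over IDs with a joint count of at least 20.

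Counts were spread over many genes in late microspores and concentrated in fewer in unheated ones. With every library thinned to 85651 gene counts, 50% of counts lay in 2296, 2558 and 2800 gene IDs in the 3 late libraries and in 829, 806 and 924 in the 3 unheated libraries. The stages did not overlap, and the lowest late library needed more than 2 times as many IDs as the highest unheated one. At this depth 21855 ± 1190 IDs had a count in late and 14606 ± 191 in unheated microspores (SD, n = 3). Exact two-sided permutation tests gave p = 0.1 for each measure, the smallest that 3 against 3 allows. Late replicate 3, with the highest share of reads outside genes, was also the library with the most IDs detected, 22890. Without it the difference in the number of IDs that hold 50% of counts was -1574 (unheated minus late).

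**Figure D1:**
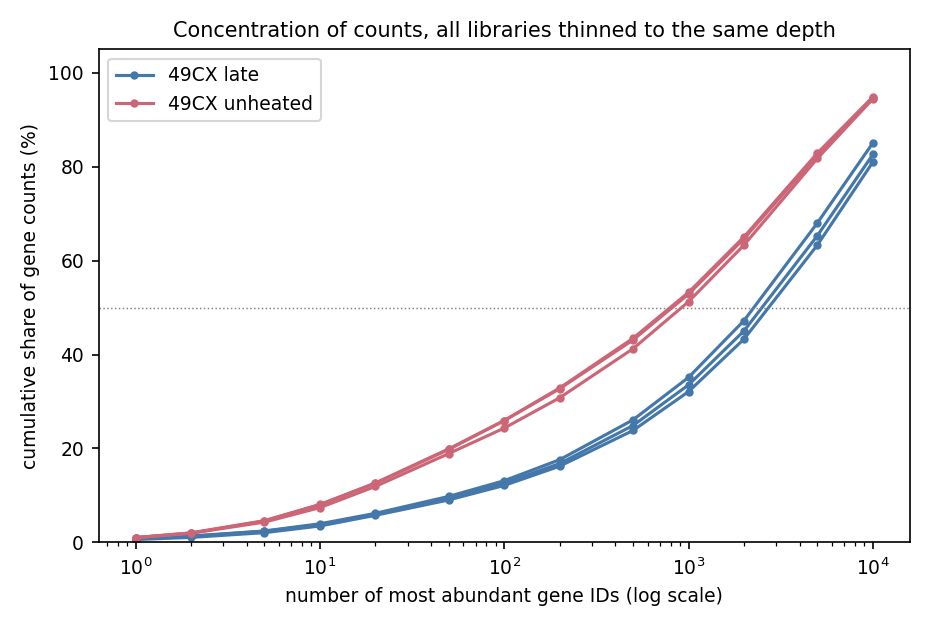
Cumulative share of gene counts (vertical axis, %) held by the most abundant gene IDs (horizontal axis, number of IDs, log scale), one line per library, with every library thinned to 85651 gene counts. The 3 unheated 49CX libraries lie above the 3 late ones: the 50 most abundant IDs held 19.5% ± 0.546 of thinned counts in unheated and 9.43% ± 0.377 in late microspores (SD, n = 3), and the dotted line marks 50%.

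The same narrowing was seen at the top of the expression range. Among counts as deposited, the 50 most abundant IDs of each library held 9.79%, 9.46% and 9.06% in late and 19.8%, 19.98% and 18.8% in unheated microspores. Of the 50 IDs highest on average in unheated cells, 48 were called higher than in late cells (16.5% of all IDs tested were), 31 belonged to a set of pollen IDs described below, and 36 were also among the 50 highest in unheated K2. Of the 50 highest in late cells, 24 were called higher and 14 lower, 19 were pollen IDs, and 8 were among the 50 highest in late K2. The stages had 24 of their 50 highest IDs in common. The abundant transcripts of unheated 49CX cells were thus largely those of unheated K2 cells, while those of late cells mostly were not those of late K2 cells. The IDs of each stage were chosen by their level in the libraries that also enter the calls, which tilts the calls towards that stage. These counts rest on group means and were not tested.

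Gene by gene, 2552 of 9376 IDs differed between the stages (27.2%; adjusted p under 0.05 by Benjamini-Hochberg in the quasi-likelihood test of edgeR). Of these, 1545 were higher (16.5% of IDs tested) and 1007 lower (10.7%) in unheated cells. Many changes were large: 1409 IDs rose and 918 fell by at least 2-fold, and 482 rose and 167 fell by at least 8-fold. IDs called higher held 17.0% ± 0.551 of gene counts in late and 51.0% ± 1.57 in unheated cells, and IDs called lower 13.3% ± 0.785 and 3.83% ± 0.293 (SD, n = 3), which describes the size of the calls and tests nothing. The split by direction depends on the scaling. With TMM factors (scaling that takes most genes as unchanged) of 1.14 to 1.17 in late and 0.740 to 0.778 in unheated libraries, the median log2 change of all IDs was -0.12. By library size alone this median was -0.71, with 980 IDs called higher and 2663 lower. In bulk RNA a smaller number of cells of one type and less RNA per cell cannot be told apart.

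Few transcripts were clearly present at one stage and not seen at the other. There were 15 IDs with at least 10 counts in each unheated library and none in any late library. Of these, 13 had a count in pollen and 5 were members of the pollen set described below. Of all 9376 IDs tested gene by gene, 44.1% had a count in pollen and 366 were pollen set members. In the opposite direction 0 IDs reached 10 counts in each late library with none in the unheated ones. With a minimum of 1 count, 272 IDs were seen in all 3 unheated libraries and no late one, and 855 the other way round. At equal depth these numbers were 187 and 1377, and 7 IDs in place of 15 reached 10 counts in each unheated library and none in late ones. In the counts as deposited, the 855 late-only IDs summed to 1.33% ± 0.161 of late gene counts (SD, n = 3). On average they were thus close to the limit of detection, and 56 of them were among the IDs tested gene by gene. Of the unheated-only IDs 43.0% had a count in the pollen library, and of the late-only IDs 8.42%. At equal depth these shares were 55.6% and 12.3%. Of all 47135 IDs, 7978 had a count in that library.

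Tissue programmes were followed with 3 sets of IDs built from other libraries: K2 pollen (1 library), K2 leaf and K2 embryos. A member is at least 4-fold higher in its own tissue than in either other tissue. The pollen set and the leaf set hold 500 IDs each and the embryo set 209. In late 49CX microspores the pollen set held 6.87%, 6.48% and 7.04% of gene counts, and in unheated ones 19.6%, 20.1% and 18.9%. All 3 unheated libraries were above all 3 late ones. Heated 49CX cells held 15.9% ± 0.354 (SD, n = 3). Of the 500 members, 366 passed the low-count filter; 290 of these rose (79.2%, against 16.5% of all IDs tested), 3 fell (0.820%, against 10.7%) and 73 were not called. Their median log2 change was 2.37, with quartiles of 1.30 and 3.62, against -0.12 for all IDs tested. A member seen only in unheated cells could pass the filter through that stage, which tilts the count towards a rise, while the share of counts uses all 500. The 134 members that were not tested had 389 counts in the late and 1767 in the unheated libraries.

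**Figure D2:**
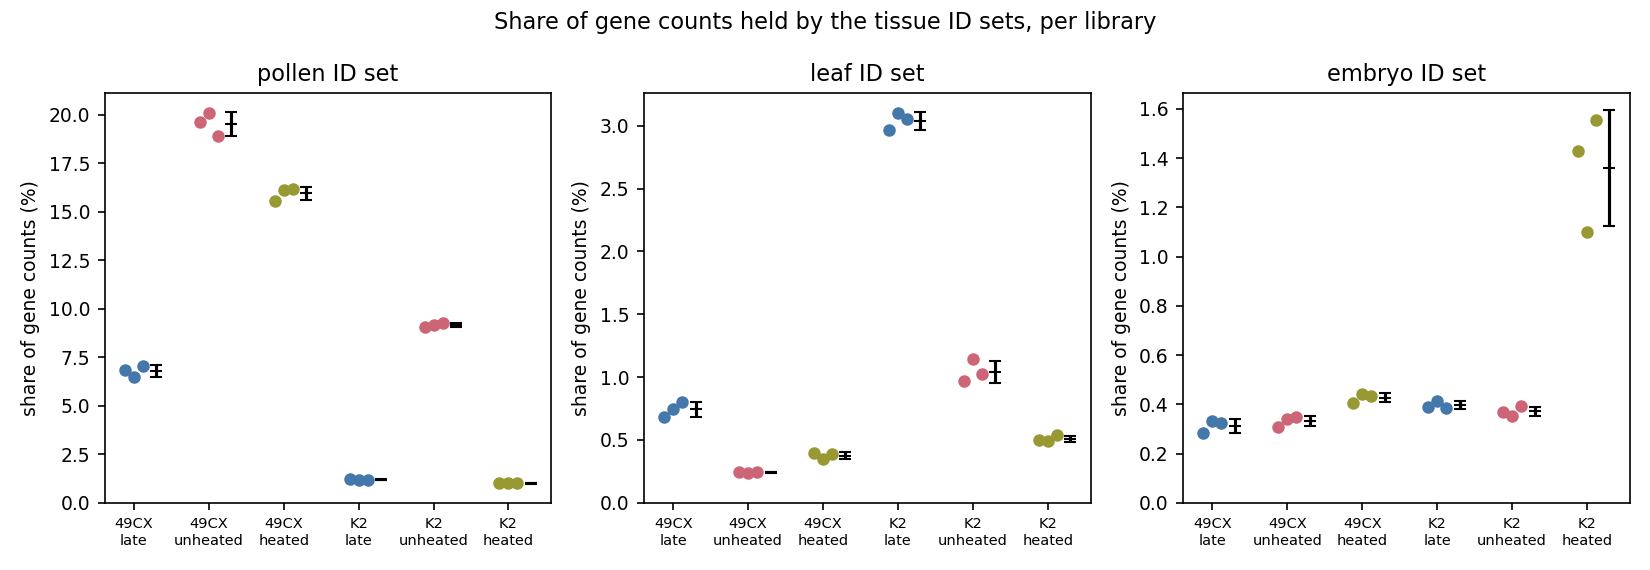
Share of gene counts (vertical axes, %, different scales) held by the pollen, leaf and embryo ID sets in each microspore library, for late, unheated and heated cells of 49CX and K2; points are libraries and black bars the mean ± SD (n = 3). In 49CX the pollen set stood at 6.79% ± 0.288 in late and 19.5% ± 0.604 in unheated cells, the leaf set at 0.745% ± 0.0587 and 0.243% ± 0.00491, and the embryo set overlapped between these stages.

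The gain in pollen set transcripts was broad and at the same time led by the most abundant members. The mean share of counts was larger in unheated cells for 435 of the 500 members, smaller for 62 and 0 in both for 3. The 10 members that gained most made up 35.8% of the gain of 12.7 percentage points, and the 50 that gained most made up 79.0%. Members were also split into 4 classes of 125 by their level in pollen. In the highest class 106 of 118 tested members rose, with a median log2 change of 3.06, and in the lowest 37 of 60 rose, with a median of 1.79. The highest class held 4.16% ± 0.219 of gene counts in late and 12.9% ± 0.381 in unheated cells (SD, n = 3). The lowest held 1.001% ± 0.0587 and 2.53% ± 0.158. At equal depth 360 ± 16.3 of the 500 members had a count in late and 458 ± 6.11 in unheated cells, although the number of all IDs detected was lower in unheated cells.

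A graded view took all 47135 IDs, with no filter on low counts. With the IDs detected in pollen split into 4 equal classes by level, the 1995 IDs of the highest class held 19.3%, 18.6% and 19.1% of gene counts in late and 41.9%, 42.8% and 40.8% in unheated cells. The 39157 IDs with 0 counts in pollen held 54.1%, 55.2% and 55.2% in late and 35.6%, 34.9% and 36.5% in unheated cells. The 3 classes between them held less in unheated than in late cells. From the lowest to the one just below the highest they held 7.53% ± 0.0701, 7.58% ± 0.137 and 11.1% ± 0.303 in late and 6.07% ± 0.182, 5.86% ± 0.0538 and 10.6% ± 0.0461 in unheated cells (SD, n = 3). Of the 1460 tested IDs in the highest class 52.1% rose and 3.97% fell, and of the 5245 tested IDs with 0 counts in pollen 8.37% rose and 12.4% fell. Pollen is a single library of 118317 gene counts, so the lower classes rest on 1 count per ID and have no replicate check.

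**Figure D3:**
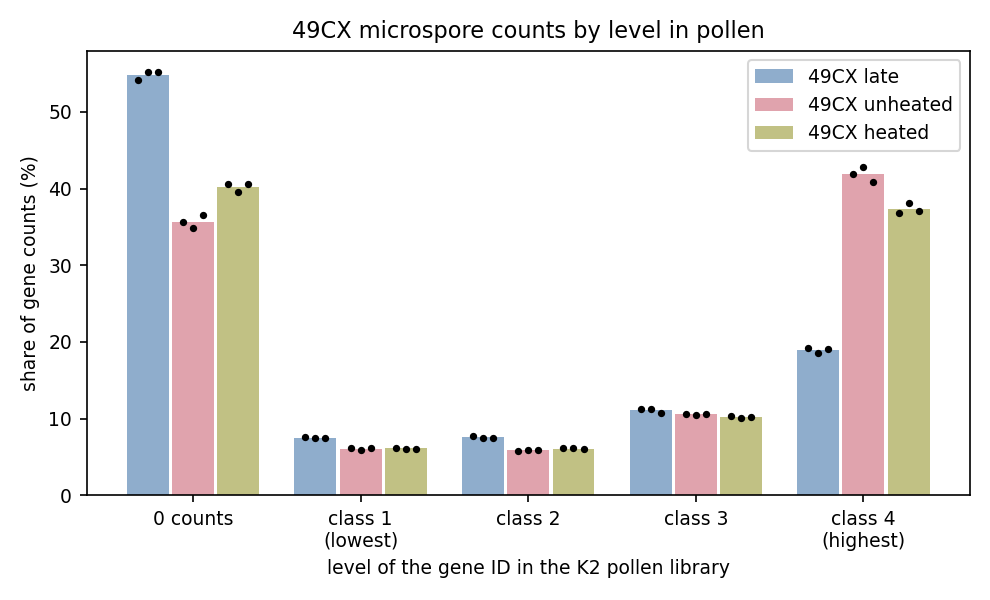
Share of gene counts (vertical axis, %) of 49CX libraries held by gene IDs classed by their level in the K2 pollen library (horizontal axis: 0 counts, then 4 equal classes of the IDs detected; ties split by table order); bars are means of 3 libraries and points the libraries. The highest class went from 19.0% ± 0.360 in late to 41.8% ± 1.02 in unheated cells (SD, n = 3) and the undetected class in the opposite direction, with heated cells between the stages in both.

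Leaf set transcripts, which stand here for sporophyte or photosynthetic tissue, were scarce in late cells and scarcer in unheated ones. The set held 0.684%, 0.748% and 0.802% of gene counts in the late libraries and 0.242%, 0.238% and 0.248% in the unheated ones, without overlap, and 17.0% ± 1.78 in 49CX leaf (SD, n = 3). Of 173 members tested 43 fell (24.9%, against 10.7% of all IDs tested), 1 rose (0.578%, against 16.5%) and 129 were not called, with a median log2 change of -1.90. A member seen mainly in late cells of either line could pass the filter through them. This tilts the count towards a fall, while the share of counts uses all 500. At equal depth 261 ± 22.2 of the 500 members had a count in late and 116 ± 10.4 in unheated cells. The 327 members that did not reach the test had 793 counts in late and 474 in unheated libraries. The number of members called lower moved with the setting. With only the 6 libraries compared 5 members were called lower, beside 730 of all 2774 IDs tested. With no filter the number was 22, beside 457 of 45011 IDs, and by library size alone 85, beside 2663 of 9376. How many members the filter left among the 2774 IDs was not counted. With all IDs classed by their level in leaf, the result depended on the line of the leaf. The 8786 IDs highest in 49CX leaf held 57.9% ± 1.36 of gene counts in late and 58.9% ± 0.392 in unheated cells, with overlap. The 7754 IDs highest in K2 leaf, the line that gave the set, held 43.9% ± 1.25 and 33.1% ± 0.998 (SD, n = 3), without overlap.

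The embryo set overlapped between the stages. It held 0.282%, 0.333% and 0.323% of gene counts in late and 0.308%, 0.339% and 0.348% in unheated cells. Of 82 members tested 7 rose and 7 fell, and the median log2 change was -0.01. The share called, 8.54% in each direction, was below that of all IDs tested, which was 16.5% higher and 10.7% lower. For comparison, heated K2 cells held 1.36% ± 0.236 (SD, n = 3). At equal depth the number of members with a count was 97.7 ± 6.03 in late and 67.7 ± 2.52 in unheated cells, beside the lower number of all IDs detected. The K2 embryo libraries behind this set held from 6021 to 170479 gene counts, and only 209 IDs met its rule.

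Taking raised and lowered IDs as lists, 1247 of the 1545 raised and 954 of the 1007 lowered IDs belonged to none of the sets. Of the raised IDs, 71.6% had a count in the pollen library, against 44.1% of all IDs tested and 35.7% of those lowered. In K2 leaf 79.6% of raised, 95.5% of lowered and 93.1% of all tested IDs had a count, and the median level was 2.78, 33.7 and 28.1 CPM by library size. In leaf of 49CX itself the gap was smaller: 92.6%, 98.5% and 96.8% had a count, with medians of 7.84, 31.4 and 20.4 CPM. In these lists the share with pollen counts was highest among raised IDs, and the share with leaf counts lowest; these shares were not tested. In the pooled K2 embryos the shares differed little, at 95.9%, 96.6% and 97.3%.

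Whole profiles were also set against those of other tissues. Across the 9376 IDs, the Spearman rho of each thinned library with the pollen library was 0.0505 to 0.0868 in late and 0.332 to 0.345 in unheated cells. In heated 49CX cells it was 0.329 to 0.347. With the K2 embryos it was 0.198 to 0.206 in late and 0.282 to 0.285 in unheated cells, without overlap. With 49CX leaf it was 0.353 to 0.362 in late and 0.0580 to 0.0824 in unheated cells. With late K2 microspores it was 0.416 to 0.439 and 0.0796 to 0.101, and with unheated K2 microspores 0.559 to 0.577 and 0.570 to 0.576. The ranges of rho with unheated K2 cells overlapped between the stages, and in late 49CX cells rho was higher with unheated than with late K2 cells. These are descriptions across genes, which are not replicates, and they share the depth of each reference.

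Of the IDs that met the rule for naming, 2 raised and 2 lowered are given, one for the largest fitted change and one for the largest change in share of counts in each direction. BraC09g004440.1, a pollen set member, had 0 counts in each late library and 27, 53 and 70 in the unheated ones. In TMM-scaled CPM its unheated level was 366 ± 85.7 (SD, n = 3), at least 32.2-fold above the level of 3 counts over the late group (edgeR adjusted p = 4.89e-19). It had 8, 19 and 9 counts in heated 49CX cells, and a total of 5 in unheated K2, 1 in late K2, 1 in heated K2 and 114 in pollen. Its mean level in 49CX was lower in heated than in unheated cells, which was not tested, and K2 microspores had few counts. Neither its change in K2 (adjusted p = 0.121) nor the difference between the lines (adjusted p = 0.123) was called by edgeR.

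BraC10g031210.1, also a pollen set member, gained the largest share of counts among the IDs that met this rule. It had 3065, 2698 and 3123 TMM-scaled CPM in late and 15217, 16331 and 13971 in unheated cells, a log2 change of 2.35 ± 0.13 (SE; edgeR adjusted p = 7.2e-46). All unheated libraries were above all late ones, and on average the ID held 0.251% of gene counts in late and 1.0% in unheated cells. Heated 49CX cells stood at 11517 ± 174.5 CPM. In K2 it went from 52.9 ± 18.3 in late to 5919 ± 444 in unheated cells and was 10.4 ± 9.03 with heat (SD, n = 3).

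BraC09g010590.1 had the largest fitted fall among the IDs that met the rule for naming (called, above a minimum level and with no overlap between the stages). It had 54, 35 and 29 counts in the late libraries and 0, 1 and 3 in the unheated ones, a ratio of 44.2 after scaling (16.8 to 165, exact 95% interval for counting error only; edgeR adjusted p = 1.22e-24). In K2 it was 292 ± 28.2 CPM in late and 6.70 ± 7.67 in unheated cells, so both lines had it in late cells and hardly without heat. With heat it was 109 ± 5.84 CPM in K2 and 20.2 ± 18.45 in 49CX (SD, n = 3). It had 0 counts in pollen, 6 in the 3 leaf libraries of 49CX and 8 in those of K2.

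BraC10g021390.1 lost the largest share of counts among the IDs that met the rule. It had 4148, 3903 and 3346 TMM-scaled CPM in late and 2187, 2282 and 2454 in unheated cells, a log2 change of -0.72 ± 0.14 (SE; edgeR adjusted p = 6.61e-06). The stages did not overlap, and heated 49CX cells were lower still, at 902 ± 103. In K2 the direction was the opposite: 1538 ± 166 in late and 3138 ± 114 in unheated cells, and 6.98 ± 7.85 with heat (SD, n = 3). It is in none of the sets and had 1 count in pollen. Paralogs and antisense transcripts of these IDs cannot be told apart from them here, since neither the annotation nor the strand setting of the counting is given.

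**Figure D4:**
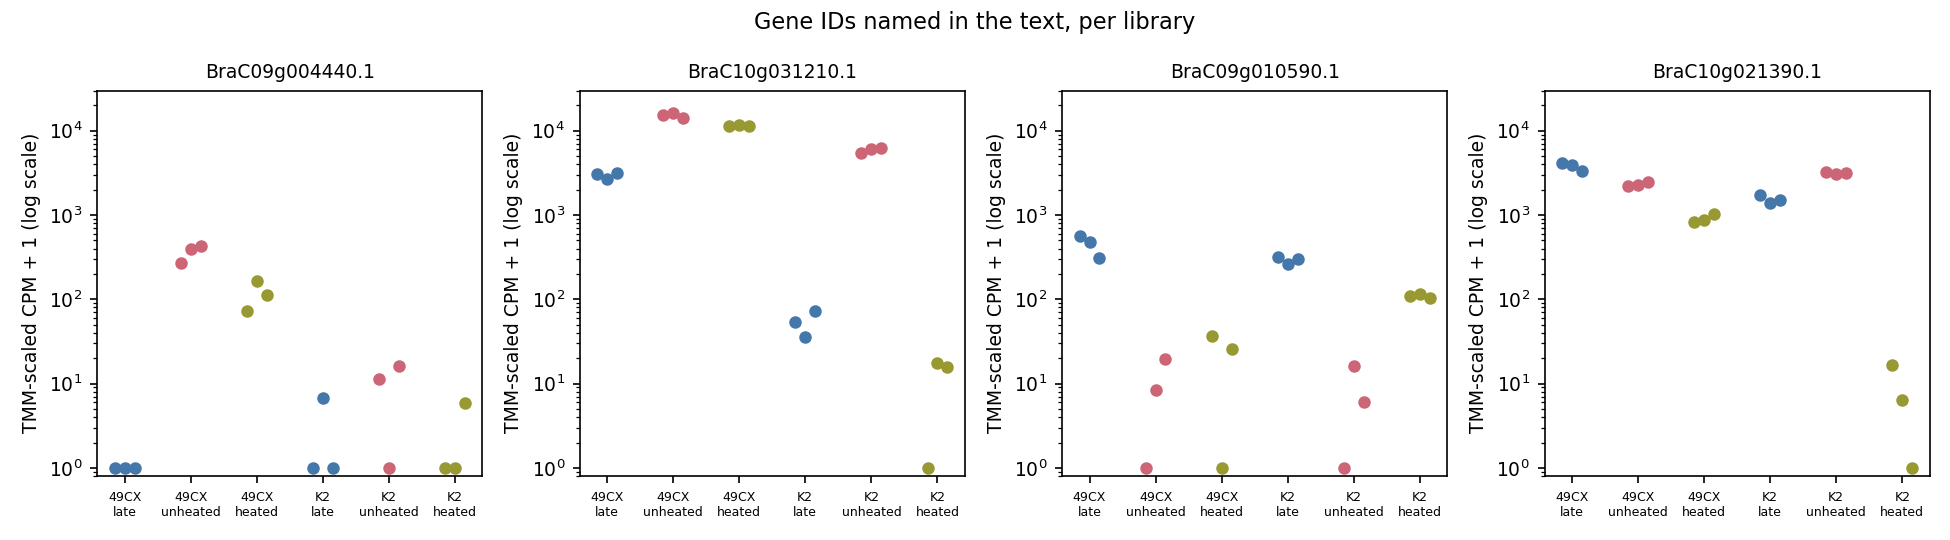
Level of the 4 named gene IDs (vertical axes, TMM-scaled CPM + 1, log scale) in each microspore library, by line and stage (horizontal axes); each point is 1 library, and points at 1 have 0 counts. BraC09g004440.1 is at 0 counts in all 3 late 49CX libraries, and BraC10g021390.1 is lower in unheated than in late 49CX cells but higher in unheated than in late K2 cells.

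The same step in K2 gives a comparison with no library in common. In K2 edgeR called 4285 of 9376 IDs (45.7%), 2143 higher (22.9%) and 2142 lower (22.8%), in libraries that were mostly deeper. With all microspore libraries thinned to 85651 counts, 1245 of 3109 IDs were called in 49CX and 1488 in K2. Across the 9376 IDs the log2 changes in 49CX and K2 were related with Pearson r = 0.58 and Spearman rho = 0.55. With no filter on low counts, over 45011 IDs, Pearson r was 0.12. Of the IDs raised in 49CX, 1063 also rose in K2, which is 68.8% of the 49CX list and 49.6% of the K2 list, and 38 fell. Of those lowered in 49CX, 446 also fell in K2, which is 44.3% of the 49CX list and 20.8% of the K2 list, and 54 rose.

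The difference between the changes in the lines was tested as an interaction term. It was called for 1166 IDs (12.4%), with the 49CX change above that of K2 for 458 (4.88%) and below it for 708 (7.55%). By library size alone the split was 297 above and 1329 below. Among the 366 pollen set members tested, 41 were above and 61 below, with a median difference of 0.33, against -0.15 over all IDs. Among the 173 leaf set members tested 5 were above and 4 below, and among the 82 embryo set members tested 4 and 6. Most IDs raised in 49CX were thus not called as different from K2: 173 had a larger and 244 a smaller change than in K2, of 1545.

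The 244 IDs raised in both lines but less in 49CX held 9.69% ± 0.260 of gene counts in late and 28.2% ± 0.974 in unheated 49CX cells, and 1.30% ± 0.105 and 17.9% ± 0.336 in the same stages of K2 (SD, n = 3). Their median log2 change was 2.12 in 49CX and 5.45 in K2. Beside the smaller change, the level in 49CX was higher than in K2 both in late and in unheated cells; these values chose the class and test nothing. Heated cells and pollen were in neither contrast that chose them, although the heated libraries entered the filter, the scaling and the dispersion of the shared fit. The class held 22.0% ± 0.515 in heated 49CX, 0.579% ± 0.0115 in heated K2 and 30.4% in the pollen library. Of the 244 IDs 53 were pollen set members, beside 290 of all 1545 IDs raised in 49CX.

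A group of 246 IDs fell in K2 and was not called in 49CX, with the difference called. It held 5.08% ± 0.0966 in late and 0.747% ± 0.0575 in unheated K2 cells, and 1.24% ± 0.0434 and 1.15% ± 0.0756 in 49CX (SD, n = 3). Another 250 rose in K2 and were not called in 49CX, also with the difference called. Of 131 IDs that fell in 49CX and were not called in K2, with the difference called, 0 were pollen set members. Only 3 of the 366 pollen set members tested fell in 49CX at all. The 131 IDs held 2.33% ± 0.182 in late and 0.650% ± 0.0766 in unheated 49CX cells. In K2 late microspores they stood at 1.53% ± 0.0404 and in unheated ones at 1.46% ± 0.0358. IDs that rose in 49CX and fell in K2 numbered 38, and those that fell in 49CX and rose in K2 numbered 54. The late and unheated values of both lines chose all these classes, so their shares at those stages test nothing.

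**Figure D5:**
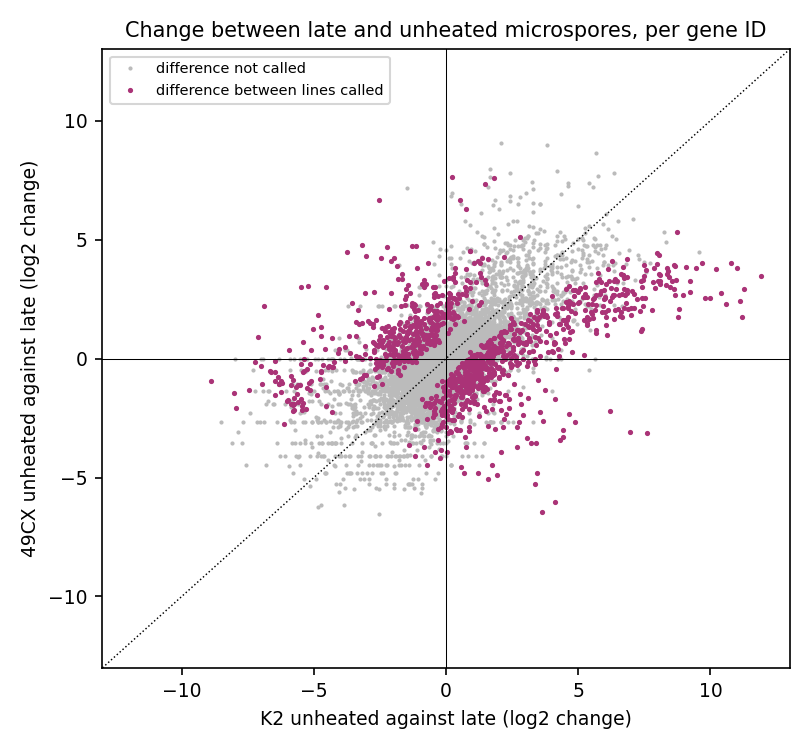
Log2 change between late and unheated microspores per gene ID in K2 (horizontal axis) and 49CX (vertical axis), for 9376 IDs; coloured points are the 1166 IDs for which the difference between the lines was called, and the dotted line marks equal change. Many coloured points at the right rose in both lines but more in K2, where the 244 IDs of that class had a median change of 5.45 against 2.12 in 49CX.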

How the data were processed

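The deposited values are raw counts of reads per gene ID, 1 table per library, with no normalization by the authors. Libraries were made from isolated cells with a low-input protocol and described as strand-specific, per the labels' protocols. The tools were Trim Galore, HISAT2, Picard and HTSeq, per the submitters' processing notes. For their versions, their order, the counting strand, the build and the annotation, the entry is: not given in the sources used here. Summary rows without a gene entered neither the library sizes nor the fits; their share is given in the text. K2 pollen replicates 2 and 3 had 0 gene counts and were not used.

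The 18 microspore libraries were fitted together with edgeR 4.0.16 (R 4.3.3; robust quasi-likelihood test, TMM factors, filterByExpr filter, Benjamini-Hochberg adjustment over 9376 IDs, threshold 0.05). The interaction contrast came from the same fit. ID sets were built with edgeR from K2 pollen, leaf and embryo libraries (adjusted p under 0.05, at least 4-fold, at most 500 members by size of difference). Shares of counts use library totals. Thinning drew 85651 counts per library with a fixed seed. Single values were compared by exact permutation tests (scipy 1.17.1). The members, sets and lists were chosen with earlier results of these data known. Named IDs were, in each direction, the largest fitted change and the largest change in mean share of counts, among called IDs with a mean log2 CPM (pseudocount 1) of at least 3 and no overlap between the stages. Alternatives were DESeq2 1.42.0, its size factors, library size alone, no filter, the 6 libraries only, thinned counts, a replicate block and each library left out.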

Additional observations from a re-analysis of the deposited data

Results flagged for a closer look

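The change between late and unheated cells differed between 49CX and K2 for 1166 of 9376 gene IDs, by the interaction term of edgeR's quasi-likelihood test. Among the named IDs, BraC10g031210.1 changed less in 49CX than in K2, with a log2 difference of -4.43 (adjusted p = 9.26e-47, edgeR); its level was higher in unheated than in late cells in 3 of 3 libraries of both lines. BraC10g021390.1 fell in 49CX and rose in K2, with a log2 difference of -1.73 (adjusted p = 3.94e-15, edgeR). For BraC09g004440.1 and BraC09g010590.1 the difference was not called (adjusted p = 0.123 and 0.940, edgeR). Groups of 3 are too small for a test of single outlying libraries.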

How the results depend on the processing

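No pairing by replicate number was visible: deviations from the stage means had Pearson r of 0.0154, -0.00164 and -0.0193 for same-numbered libraries. Many of the IDs had few counts, so these values cannot exclude a pairing, which the labels do not give. With a replicate block 2420 IDs were called, 1503 higher and 917 lower, and the interaction was called for 1088. With only the 6 libraries compared 1615 of 2774 IDs were called, 885 of them higher and 730 lower. With thinned counts 1245 of 3109 were called, 709 higher and 536 lower. The filter left fewer IDs in both. By library size alone 980 were higher and 2663 lower. Without a filter 457 of 45011 were lower, and DESeq2's Wald test called 604 lower; the cause was not tested. Thinning left 485 interaction calls and 1488 in K2. Pollen set members called higher numbered 182 with the 6 libraries, 154 with thinning and 135 with at most 200 members kept. Leaf set members called lower numbered 85 by library size alone, 22 without a filter, 5 with the 6 libraries, 19 with thinning and 14 with at most 200 members. Leaving out 1 library gave 2115 to 2321 calls (1341 to 1515 higher, 700 to 825 lower), 955 to 1021 interaction calls, 4544 to 4721 calls in K2, 268 to 289 pollen set members higher and 30 to 38 leaf set members lower. The 50 most abundant IDs gained 9.87 to 10.5 percentage points, and the difference in reads outside genes was -13.0 to -7.05. The pollen set gained 12.5 to 13.1 points and the leaf set changed by -0.532 to -0.474. Both named raised IDs and both lowered IDs kept their direction and call in every setting in which they passed the filter. The Pearson r between the lines was 0.50 to 0.53 without 1 library and 0.12 without a filter.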

Other observations

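Raised IDs often stood beside each other in the order of the deposited tables. Of 701 raised IDs whose neighbour in the table was also tested, 225 (32.1%) had a raised neighbour, while 18.7% of all tested IDs with a tested neighbour had one. For lowered IDs the values were 55 of 466 (11.8%) and 12.6%. Reads shared between copies or overlapping genes could not be checked without an annotation. Between the groups of IDs that share the digits after BraC, the share raised ranged from 14.6% to 17.7% and the share lowered from 9.19% to 12.9%. The most abundant IDs were called most often. Of 60 tested IDs with a mean log2 CPM over 10 across the 18 microspore libraries, 47 rose and 5 fell. Of 3453 with a mean between 5 and 6, 397 rose and 338 fell, and of 89 with a mean under 5, 24 rose and 9 fell. The mean includes the unheated libraries, so a rise there moves an ID to a higher class. Higher counts also make a call easier, so these numbers test nothing. Reads assigned to several genes made up 0.180% ± 0.0238 of reads in late and 0.339% ± 0.0225 in unheated cells (SD, n = 3; exact permutation p = 0.1, the smallest possible).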
